A study of Mus musculus with 24 samples.

Results

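The genes described here are 33 genes, all but a few of the contractile apparatus and calcium store of muscle, taken from 5908 measured features with a gene symbol and 8750 features in all. They were chosen by name, with earlier results of these data known. Their symbols are those of myosin heavy and light chains, troponins, tropomyosins, alpha-actinins, muscle actins, and M-band and Z-disc proteins. The genes also include calcium pumps and release channels of the sarcoplasmic reticulum, and Mylpf, Mb, Des, Pvalb and Ldb3. By the textbook site of each protein they fall into 9 fast skeletal genes (Acta1, Actn3, Atp2a1, Casq1, Myh1, Mylpf, Pvalb, Tnni2 and Tnnt3), 6 genes shared by striated fibres (Actn2, Des, Ldb3, Mb, Myom2 and Tpm2), 12 slow and cardiac genes (Actc1, Atp2a2, Myh6, Myh7, Myl2, Myl3, Myl4, Ryr2, Tnnc1, Tnni3, Tnnt1 and Tnnt2), 3 smooth muscle genes (Acta2, Myh11 and Myl9) and 3 genes of most cells. Of the last 3, Myl6 and Tpm3 belong to the cytoskeleton of many cell types, and Tpmt is a drug-metabolising methyltransferase that is no muscle gene and was taken in by the letters of its symbol. In the fast skeletal class, Acta1 and Casq1 are proteins of skeletal muscle in general rather than of fast fibres alone. Ckm, Ttn, Neb, Tcap, Myh9 and the other heavy chains of fast fibres were not analysed here.

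The sarcomere is the repeating unit of striated muscle, in which myosin thick filaments pull on actin thin filaments between 2 Z-discs. Calcium released from the sarcoplasmic reticulum binds troponin C. The troponin complex of subunits C, I and T then shifts the position of tropomyosin on the thin filament. Calcium pumps of the SERCA family return the calcium to its store. Fast, slow, heart and smooth muscle use different genes for the same parts, so that these transcripts tell muscle types apart. Skeletal muscle lies directly under the skin of the leg and in the thin muscle layer that rodent skin itself contains, and heart-type muscle cells line the large veins of the mouse lung.

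The study compared skin and lung of female mice, aged 12 to 13 weeks, of 3 inbred strains, namely A/J, C57BL/6J and C3H/HeMs. Skin was taken in its full depth from the hind leg 1 h, 12 h or 72 h after 30 Gy to the leg, or without irradiation. Lung was taken at the same times after 10 Gy to the thorax, or without irradiation. Each of the 24 arrays held RNA pooled from 3 mice of 1 strain, tissue and time, so that a group had 3 arrays, 1 per strain. A pool had no second array, and p-values therefore measure the spread between pools left by each fit, rather than between mice. Tests of time and tissue take out the mean differences between strains, and the test of strain takes out those between times. The test of strain by irradiation has no term for time, so differences between the 1 h, 12 h and 72 h pools add to its spread. Values are log2 ratios of the sample over a common reference mixed from commercial RNA of 10 organs, centred on the median of each array. A ratio of 0 is the median feature of an array, and ratios of different genes say nothing of their relative amounts, since the reference holds a different amount of each. All skin RNA carried one dye and all lung RNA the other, so tissue and dye cannot be told apart. In bulk tissue, fewer cells of a type and less RNA per cell cannot be told apart either.

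Marker lists matched the tissue labels. The median log2 ratio of 7 epidermal genes ran from 4.05 to 6.27 on the 12 skin arrays and from -3.04 to -0.87 on the 12 lung arrays, and that of 7 lung epithelial genes from -4.56 to -2.95 in skin and from 0.98 to 3.14 in lung. In lung 4 arrays stood apart. The A/J arrays at 12 h and 72 h held 674 and 607 probes with a ratio of exactly 0 and those of C3H/HeMs 183 and 115, against 1 to 23 on each of the other 8 lung arrays. Precision is set by the small number of arrays.

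The start regions of 3 fast skeletal genes are shown because these genes varied widely between skin pools. They are the genes with the widest range in skin among fast genes that have a single promoter entry in RefSeq (build GRCm38.p6), which held an entry for 27 of the 33 genes. Each runs 5′ to 3′ from 250 bases before to 50 bases after the start of transcription, in lower case, with motif matches in capitals.
Atp2a1, chr7:126463024-126463323, minus strand: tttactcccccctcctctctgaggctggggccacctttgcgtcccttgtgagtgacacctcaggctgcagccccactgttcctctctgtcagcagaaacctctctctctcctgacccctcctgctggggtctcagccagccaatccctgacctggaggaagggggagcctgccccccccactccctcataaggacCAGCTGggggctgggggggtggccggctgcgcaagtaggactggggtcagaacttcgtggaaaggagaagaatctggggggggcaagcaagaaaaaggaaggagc
Mylpf, chr7:127211358-127211657, plus strand: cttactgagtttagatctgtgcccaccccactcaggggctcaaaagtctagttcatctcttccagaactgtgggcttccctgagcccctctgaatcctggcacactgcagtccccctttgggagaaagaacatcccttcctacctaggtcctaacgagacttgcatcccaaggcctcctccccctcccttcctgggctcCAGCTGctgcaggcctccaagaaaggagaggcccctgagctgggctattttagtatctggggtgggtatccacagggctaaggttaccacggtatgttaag
Myh1, chr11:67199852-67200151, plus strand: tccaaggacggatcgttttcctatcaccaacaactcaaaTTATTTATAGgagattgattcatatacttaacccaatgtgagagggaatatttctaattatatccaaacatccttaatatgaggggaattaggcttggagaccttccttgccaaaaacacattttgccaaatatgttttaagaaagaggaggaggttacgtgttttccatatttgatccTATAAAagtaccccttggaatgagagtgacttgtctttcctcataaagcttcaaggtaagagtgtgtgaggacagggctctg
Motifs were searched on both strands. They were the E-box CANNTG, which bHLH factors such as MyoD bind, the TATA box TATAAA, and the MEF2 and CArG sites of the factors MEF2 and SRF. In Atp2a1 and Mylpf the capitals mark an E-box with the same 6 letters, CAGCTG, which began 55 and 51 bases before the start. In Myh1 they mark a TATA box that began 32 bases before the start and a MEF2 match that began 211 bases before it and overlaps a TATA match on the minus strand. Of all 27025 genes with an entry, 75.0% held an E-box, 15.7% a TATA box, 3.70% a MEF2 match and 1.81% a CArG match. Among the 27 muscle genes these were 24, 6, 2 and 6. Letters in a window do not show that a factor binds there.

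**Figure D1:**
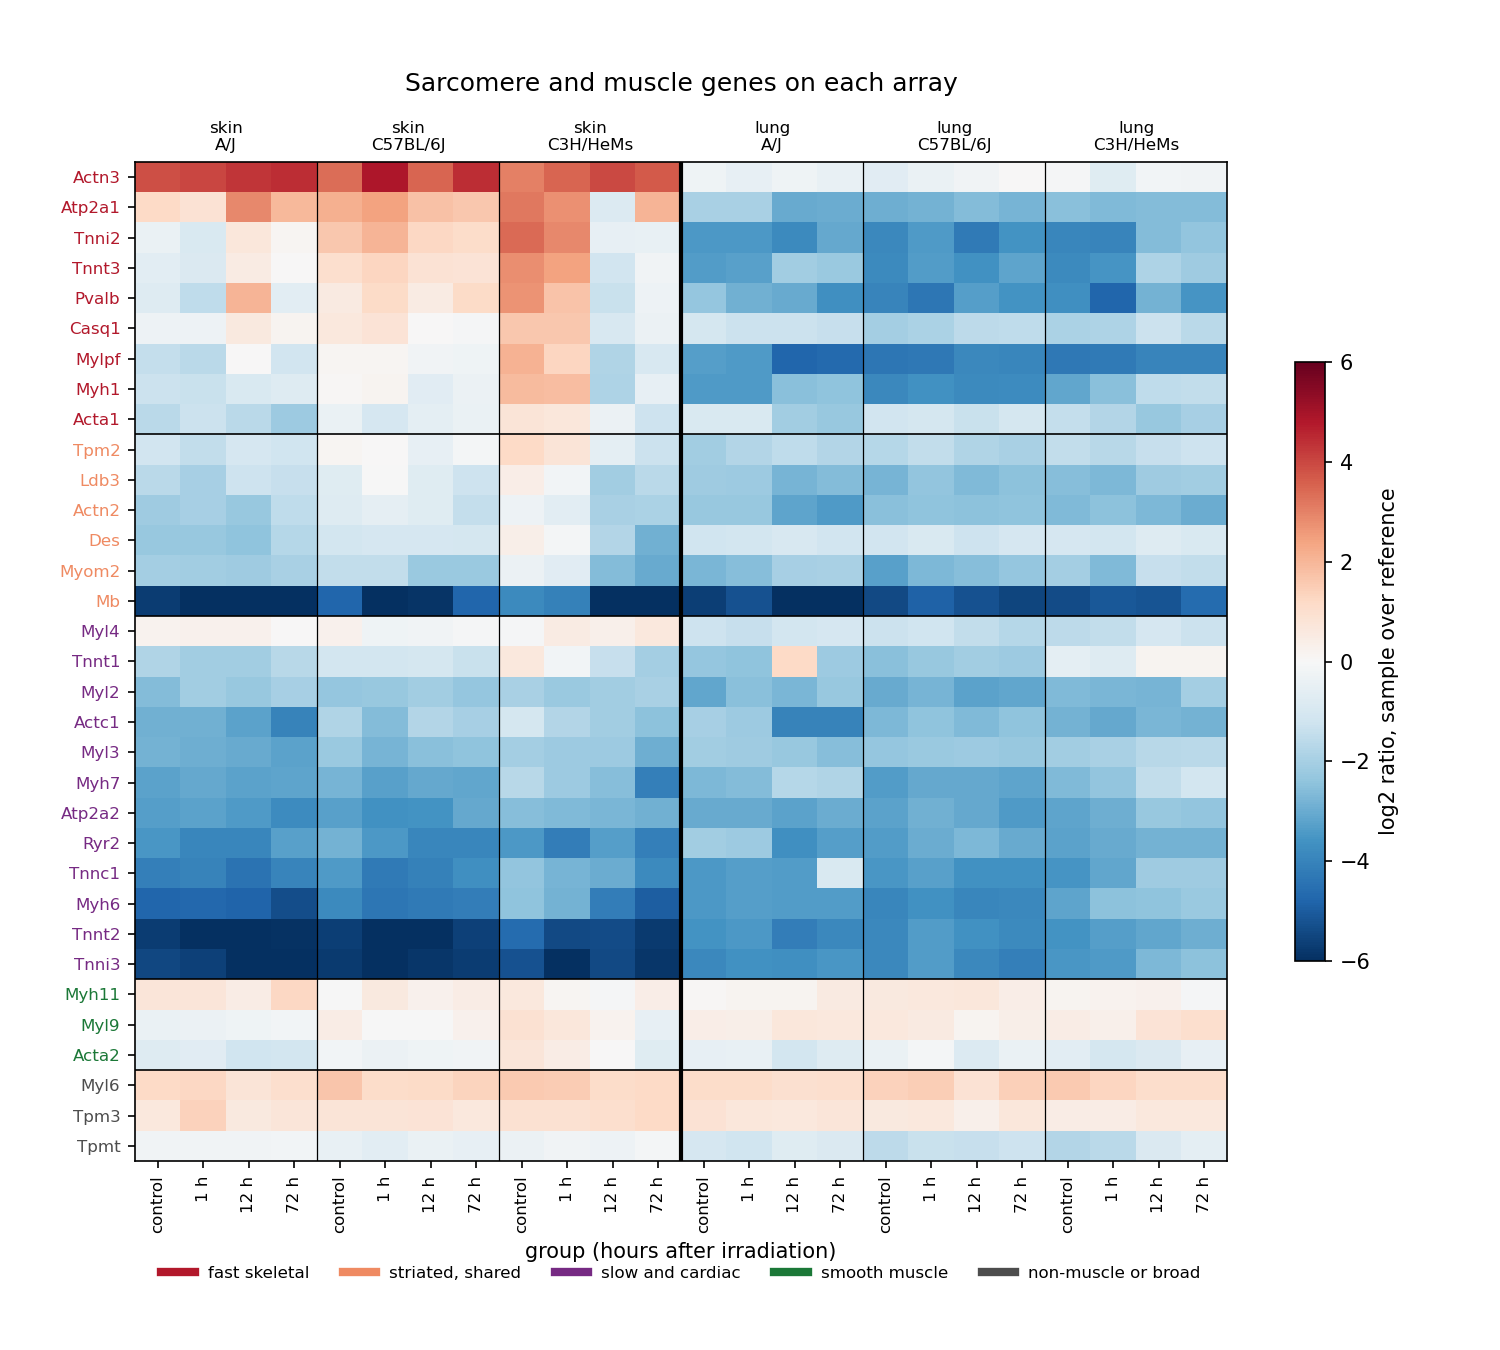
Log2 ratio of sample over reference for the 33 genes (rows, coloured by class) on the 24 arrays (columns, skin left of lung, by strain and group; 1 pool of 3 mice each), with the colour scale ending at -6 and 6. Fast skeletal genes were above the reference on many skin arrays and below it on almost every lung array, and the control and 1 h skin pools of C3H/HeMs stood out.

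In non-irradiated mice the fast skeletal genes were the most different between the tissues. Of the 9, 8 were higher in skin than in lung (median log2 difference of the 9, 4.14), and of the 6 shared striated genes 4 were higher (median 1.39). Among the 12 slow and cardiac genes 2 were higher and 2 lower (median 0.15), and none of the 3 smooth muscle genes passed (median 0.16). The median difference was 0.72 over the 33 genes and 0.24 over all features. Over all 33 genes, 15 were higher and 2 lower by limma at an adjusted p under 0.05, which is 17 called, a share below the 58.1% of all features called. The background was 35.6% of features higher and 22.5% lower in skin.

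Troponin subunits of fast fibres gave the largest differences. Tnni2, the inhibitory subunit, had ratios of -0.41, 1.61 and 3.41 in the skin of A/J, C57BL/6J and C3H/HeMs. In their lungs it had -3.43, -3.87 and -3.91, a log2 difference of 5.27 ± 0.82 (SE, adjusted p by limma = 4.44e-05). This SE and p, like the others of this comparison, came from a fit of all 24 arrays, irradiated pools included. Tnnt3, the subunit that binds tropomyosin, had -0.66, 1.02 and 2.81 in skin and -3.34, -3.82 and -3.82 in lung, with a difference of 4.72 ± 0.78 (adjusted p = 8.01e-05). The control groups did not overlap for either gene. All control skin arrays lay above all control lung arrays for 14 of the 33 genes, against 37.7% of all features. Skin values were spread over several log2 units in the order A/J, C57BL/6J, C3H/HeMs, whereas the lung values lay close together.

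The calcium handling genes of the fast skeletal class followed. Atp2a1, the calcium pump SERCA1, had 1.22, 2.14 and 3.17 in skin against -1.95, -2.94 and -2.50 in lung (difference 4.64 ± 0.70, limma adjusted p = 3.07e-05). Pvalb, the soluble calcium buffer parvalbumin, had -0.77, 0.53 and 2.70 in skin and -2.32, -3.96 and -3.68 in lung (4.14 ± 0.94, adjusted p = 0.00123). Casq1, the calcium store protein calsequestrin 1, had -0.31, 0.64 and 1.60 in skin and -1.06, -2.02 and -1.88 in lung (2.29 ± 0.48, adjusted p = 0.000665). All 3 genes were separated between the control groups of the tissues, as were 37.7% of all features in this direction. Within control skin they were lowest in A/J and highest in C3H/HeMs.

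Among the filament proteins of fast fibres, Mylpf, the regulatory myosin light chain, had -1.45, 0.12 and 2.11 in skin and -3.30, -4.34 and -4.27 in lung (difference 4.23 ± 0.73, limma adjusted p = 0.000113). Myh1, the IIx myosin heavy chain, had -1.28, 0.05 and 1.88 in skin and -3.40, -3.88 and -3.11 in lung (3.68 ± 0.65, adjusted p = 0.000147). Both had the strain order of the troponins in skin. Actn3, the alpha-actinin of the Z-discs of fast fibres, had the reverse order, with 3.85, 3.35 and 3.01 in skin and -0.25, -0.68 and -0.07 in lung (3.73 ± 0.30, adjusted p = 3.37e-08). Acta1, skeletal alpha-actin, had -1.60, -0.38 and 0.79 in skin and -1.13 in C57BL/6J lung, -0.93 in A/J lung and -1.43 in C3H/HeMs lung. Its groups overlapped and it did not pass (0.76 ± 0.52, adjusted p = 0.211).

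Of the genes shared by striated fibres, Ldb3, the Z-disc protein ZASP, had -1.60, -0.71 and 0.39 in skin and -2.14, -2.80 and -2.55 in lung (difference 1.86 ± 0.47, limma adjusted p = 0.00272). Tpm2, beta-tropomyosin, had -1.15, 0.12 and 1.19 in skin and -2.09, -1.73 and -1.46 in lung (1.81 ± 0.42, adjusted p = 0.00135). Actn2, the Z-disc alpha-actinin of all striated fibres, differed by 1.41 ± 0.37 and Myom2, an M-band crosslinker, by 1.38 ± 0.40 (adjusted p = 0.00372 and 0.00713). Myom2 lost its call without the C3H/HeMs skin control (1.02, adjusted p = 0.057) and without all C57BL/6J arrays (1.18, adjusted p = 0.117), was at 0.44 averaged over all 4 groups (adjusted p = 0.0535), and overlapped between the tissues. With all C57BL/6J or all C3H/HeMs arrays left out, Actn2 (adjusted p = 0.066 and 0.121) and Ldb3 (adjusted p = 0.053 and 0.0518) missed the threshold. Des, the muscle intermediate filament desmin, at 0.10 ± 0.52, and Mb, the oxygen store myoglobin, at 0.72 ± 0.46, did not pass (adjusted p = 0.876 and 0.183).

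Slow and cardiac genes split. Myl4, the atrial and embryonic myosin light chain, had 0.23, 0.25 and -0.06 in skin and -1.25, -1.30 and -1.58 in lung (difference 1.52 ± 0.22, limma adjusted p = 2.69e-05), and Myl2, the ventricular and slow regulatory light chain, differed by 0.65 ± 0.21 (adjusted p = 0.0143). Myl2 missed the threshold without centring (0.47, adjusted p = 0.0759), under quantile scaling (0.55, adjusted p = 0.143) and without the A/J lung control, the C57BL/6J skin control or the C3H/HeMs skin control (0.53 to 0.57, adjusted p = 0.0588 to 0.0714). The 2 heart troponin subunits ran the other way. Tnni3, cardiac troponin I, had -5.44, -5.74 and -5.24 in skin and -3.87, -3.88 and -3.52 in lung (-1.72 ± 0.30, adjusted p = 0.000132), and Tnnt2, cardiac troponin T, had -5.68, -5.63 and -4.61 in skin and -3.57, -3.86 and -3.56 in lung (-1.64 ± 0.24, adjusted p = 2.44e-05). Neither overlapped between the control groups, where 24.3% of all features lay wholly lower in skin. Both genes lay far below the reference in both tissues. Actc1, cardiac alpha-actin, at 0.60 ± 0.47, did not pass (adjusted p = 0.281), nor did the other 7 genes of the class.

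No smooth muscle gene passed between the tissues. Acta2, smooth muscle alpha-actin, had -0.79, -0.15 and 0.73 in skin and -0.48, -0.41 and -0.63 in lung (0.44 ± 0.32, limma adjusted p = 0.247). Myh11, the smooth muscle myosin heavy chain, differed by 0.16 ± 0.25 and Myl9, the smooth muscle regulatory light chain, by -0.15 ± 0.28 (adjusted p = 0.589 and 0.675). The value of Myh11 is the mean of 2 features that ran in opposite directions, with means over 12 arrays of -0.33 and 1.23 in skin and 0.44 and 0.20 in lung. Tpmt differed by 1.11 ± 0.19 (adjusted p = 8.55e-05), and Myl6 and Tpm3 by 0.11 ± 0.16 and 0.13 ± 0.19 (adjusted p = 0.552 and 0.561).

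**Figure D2:**
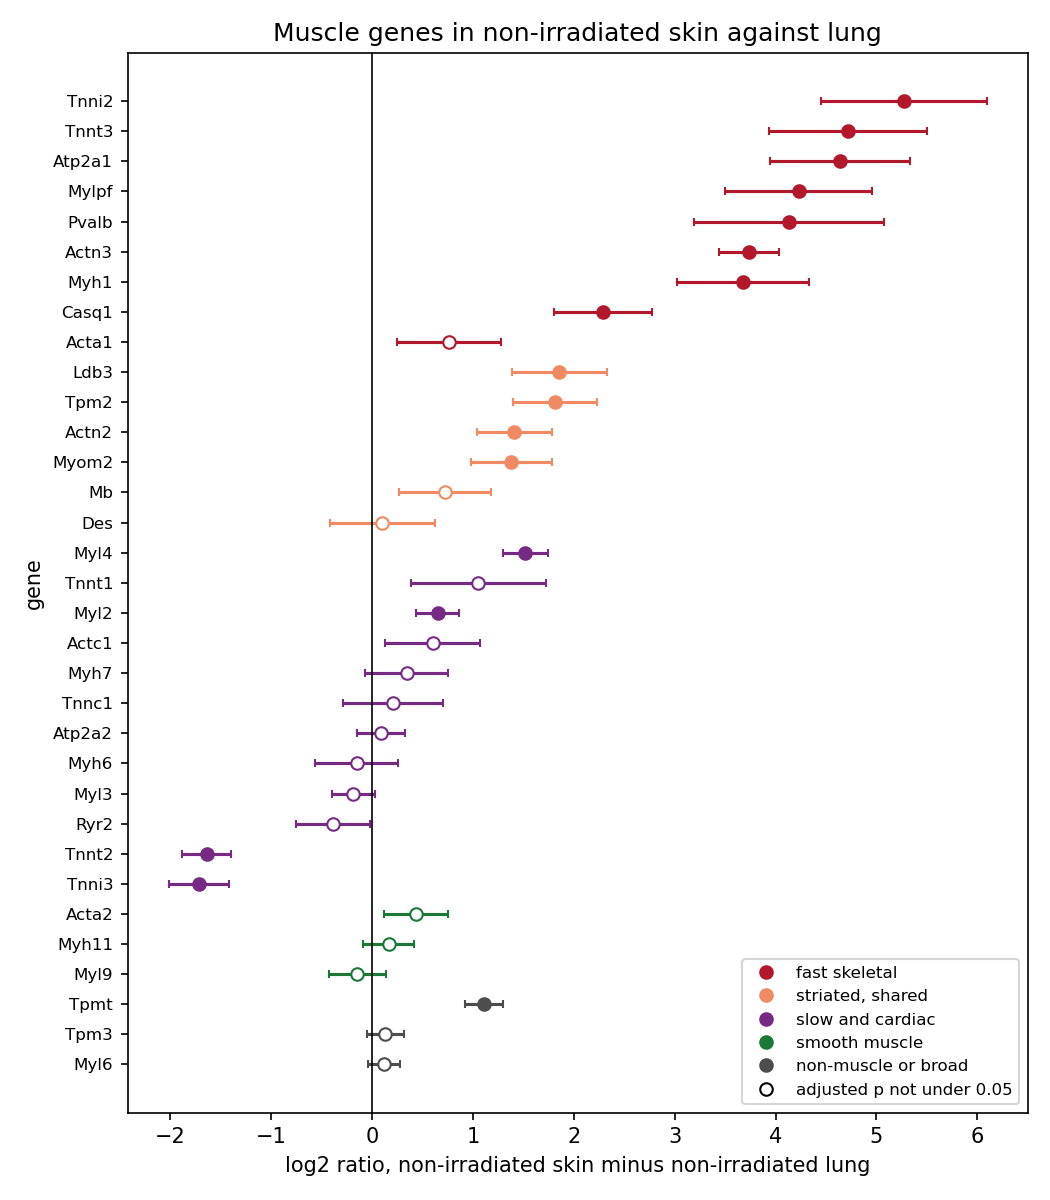
Log2 ratio in non-irradiated skin minus non-irradiated lung for each of the 33 genes (rows), filled where the adjusted p was under 0.05. Points are limma estimates with their SE from a fit of all 24 arrays (n = 3 pools per group). The 8 fast skeletal genes that passed lie between 2.29 and 5.27, and Tnnt2 and Tnni3 lie at -1.64 and -1.72.

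Over all 24 arrays fewer genes separated the tissues. For 9 of the 33 genes every skin array lay above every lung array, against 18.8% of all features, and 7 of these 9 were fast skeletal. Among the genes higher in control skin, Myh1 overlapped over all pools (lowest skin array -1.84, highest lung array -1.49). So did Tpm2 (-1.50 and -1.25), Ldb3 (-2.10 and -2.08), Tpmt (-0.61 and -0.58), Myl2 (-2.59 and -2.02) and Myom2 (-3.01 and -1.38). Actn2 separated only narrowly (-2.282 and -2.286). For Tnnt2 and Tnni3 every skin array lay below every lung array, against 9.92% of all features. Of the 33 genes, 27 were below the reference on all 12 lung arrays, and 14 were below it on all 12 skin arrays. The ratio was highest, as a mean over 12 arrays, for Actn3 in skin (3.90 ± 0.53 SD) and for Myl6 in lung (1.20 ± 0.23 SD). It was lowest for Tnni3 in skin (-5.82 ± 0.39) and for Mb in lung (-5.37 ± 0.46).

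Within the other classes the extremes of the mean ratio were as follows. In skin, Acta1 was the lowest of the fast genes (-0.77 ± 0.90 SD, n = 12), Mb and Tpm2 were the lowest and highest of the shared striated genes (-5.49 ± 0.90 and -0.44 ± 0.85), and Myl4 was the highest of the slow and cardiac genes (0.15 ± 0.28). Acta2 and Myh11 were the lowest and highest of the smooth muscle genes (-0.35 ± 0.58 and 0.45 ± 0.36), and Tpmt and Myl6 of the genes of most cells (-0.31 ± 0.15 and 1.23 ± 0.26). In lung, the fast genes ran from Mylpf (-4.08 ± 0.44) to Actn3 (-0.32 ± 0.23), the shared striated genes up to Des (-1.04 ± 0.14), the slow and cardiac genes from Tnnt2 (-3.56 ± 0.34) to Myl4 (-1.32 ± 0.22), and the smooth muscle genes from Acta2 (-0.63 ± 0.29) to Myl9 (0.52 ± 0.24). Tpmt was at -1.18 ± 0.38 in lung.

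Genes of muscle outside the contractile apparatus were measured beside these. Of 40 genes of skeletal muscle, 13 (32.5%) were higher and 4 (10%) lower in non-irradiated skin than in lung, neither share above the 35.6% and 22.5% of all features. Apobec2, a deaminase-like protein of muscle, was higher by 3.70 ± 0.70, Eno3, muscle enolase, by 2.21 ± 0.54 and Smpx, a small protein of striated muscle, by 2.03 ± 0.45 (SE, limma adjusted p = 0.000239, 0.00199 and 0.00102). Chrnb1, a subunit of the acetylcholine receptor, was lower (-1.95 ± 0.27, adjusted p = 1.59e-05). Of 8 other smooth muscle genes 2 (25%) were higher and 1 (12.5%) lower, both below the shares of all features, with Cnn1, calponin 1, at 1.92 ± 0.40 and Tagln, transgelin, at -0.82 ± 0.22 (adjusted p = 0.000649 and 0.0039). Of 7 other heart muscle genes 3 (42.9%) were higher and 1 (14.3%) lower, Nppa and Nppb, the natriuretic peptides, at 0.70 ± 0.19 and 1.17 ± 0.36 and Fgf12 at -1.36 ± 0.27 (adjusted p = 0.00458, 0.00939 and 0.000442). The third that was higher is Smpx, which is on both lists.

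The skin pools differed widely from one another in fast skeletal genes. The median of the 9 genes at control, 1 h, 12 h and 72 h was -0.66, -0.91, 0.58 and 0.02 in A/J pools, 0.64, 1.16, 0.50 and 0.81 in C57BL/6J pools and 2.70, 1.85, -0.96 and -0.36 in C3H/HeMs pools. The highest pools were thus the non-irradiated and the 1 h pool of C3H/HeMs, and the lowest was the 12 h pool of the same strain, or, without Actn3, the 1 h pool of A/J (-1.10, against -1.04). On the lung arrays the median of the same genes stayed between -3.82 and -2.13. Scaling moved the skin medians by at most 0.29 on any array, and leaving out Actn3 by at most 0.43.

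Single genes showed how wide this was. Tnni2 in skin at control, 1 h, 12 h and 72 h had -0.41, -0.91, 0.66 and 0.13 in A/J pools, 1.61, 2.03, 1.25 and 1.11 in C57BL/6J pools and 3.41, 2.88, -0.49 and -0.44 in C3H/HeMs pools. Pvalb had -0.77, -1.52, 2.02 and -0.63 in A/J pools, 0.53, 1.16, 0.50 and 1.15 in C57BL/6J pools and 2.70, 1.72, -1.34 and -0.30 in C3H/HeMs pools. Atp2a1 had 1.22, 0.87, 2.88 and 1.94 in A/J pools, 2.14, 2.43, 1.77 and 1.61 in C57BL/6J pools and 3.17, 2.75, -0.82 and 2.06 in C3H/HeMs pools. These were the widest ranges of the 33 genes in skin, 4.32, 4.22 and 3.99 from lowest to highest array, the narrowest of which exceeded that of 97.5% of all features. C57BL/6J pools stayed within 1 log2 unit of each other in all 3 genes, and the A/J pool at 12 h was the highest of its strain in each.

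**Figure D3:**
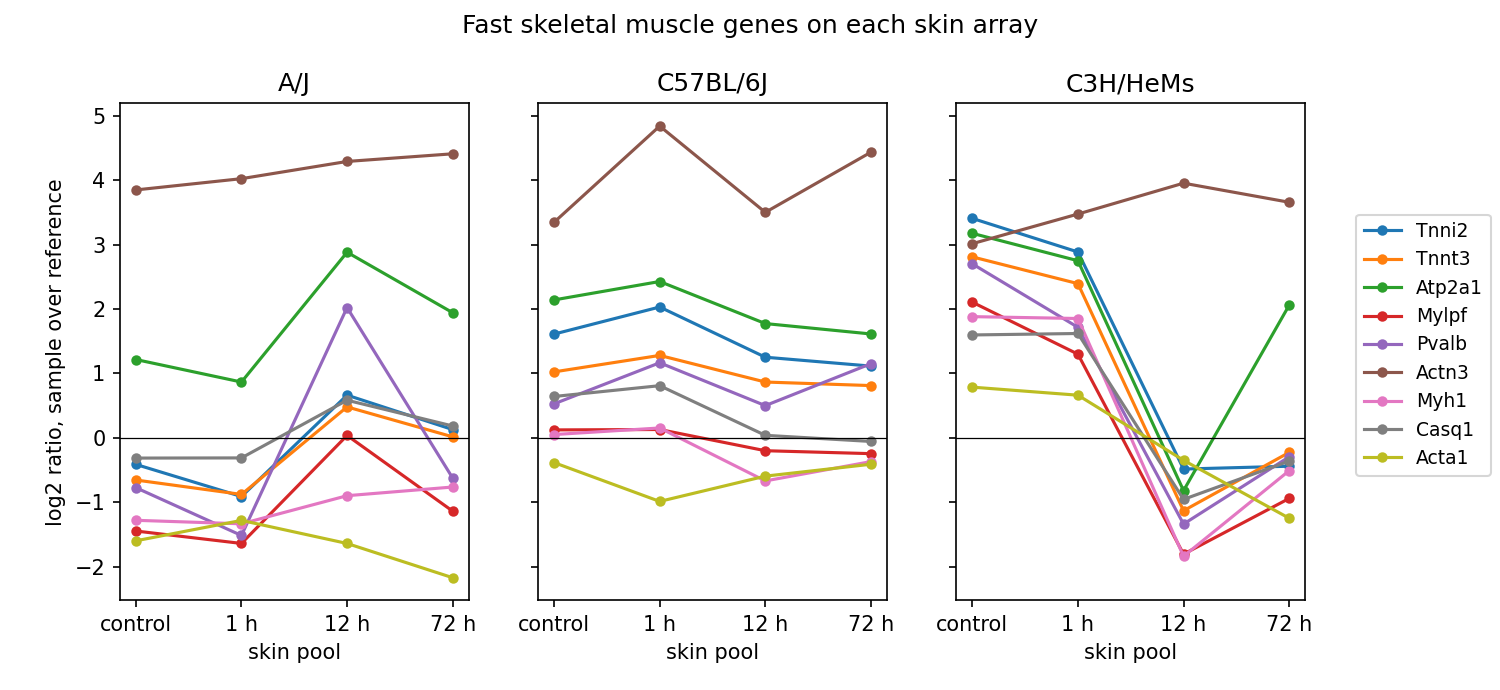
Log2 ratio of sample over reference for the 9 fast skeletal genes in the 4 skin pools of each strain; each point is 1 array of a pool of 3 mice, and lines join pools of different mice. In C3H/HeMs all genes but Actn3 were lower in the 12 h pool than in the control and 1 h pools, and Actn3 stayed between 3.01 and 4.84 in every skin pool.

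The non-irradiated C3H/HeMs pool was the highest of the 12 skin arrays for 25 of the 33 genes, compared with 13.1% of all features. These included all 6 shared striated genes and 7 of the 8 fast skeletal genes other than Actn3. In control skin 26 of the 33 genes had the order C3H/HeMs, C57BL/6J, A/J from high to low, an order that 17.1% of all features had. At 1 h and 12 h, 17 and 10 of the 33 genes had it, against 18.6% and 18.3% of features. At 72 h, 1 of the 33 genes had it, against 14.1% of features. The C3H/HeMs pool at 12 h was the lowest of the 12 skin arrays for 8 of the 33 genes, compared with 9.71% of all features. It was the lowest for 5 of the 8 fast genes and for 0 of the 12 slow and cardiac genes.

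Set against their own strain's control, 1 pool on each side and so with no test, the C3H/HeMs skin pools lay far lower at the late times. The median change of the 9 fast genes was -0.42 at 1 h, -3.89 at 12 h and -2.39 at 72 h, and that of the 6 shared striated genes -0.37, -2.16 and -2.34. Of the 33 genes, 16 lay at least 1 log2 unit below control at 12 h and 22 at 72 h, against 6.41% and 9.13% of all features. In A/J the fast genes ran the other way at 12 h, with a median change of 1.08 and 5 of the 9 genes at least 1 log2 unit higher, against 1.39% of all features. In C57BL/6J the median change of the fast genes was 0.26, -0.32 and -0.37.

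Slow and cardiac genes in C3H/HeMs skin shifted less than the fast genes at 12 h and 72 h, but not at 1 h. Their median change was -0.49, -0.41 and -1.01 at 1 h, 12 h and 72 h. At 72 h, 6 of the 12 lay at least 1 log2 unit below control, against 9.13% of all features. The C3H/HeMs control pool was the highest skin array for 10 of the 12, against 13.1% of all features. Des in C3H/HeMs skin was at 0.33, -0.14, -1.74 and -2.87 at control, 1 h, 12 h and 72 h, Myh7, the slow and beta-cardiac myosin heavy chain, at -1.67, -2.20, -2.54 and -4.09, and Tnnt1, slow troponin T, at 0.61, -0.18, -1.36 and -2.04. Each of the 3 was lowest in the 72 h pool, as was Acta1 among the fast genes (-1.25). Des is a shared striated gene, and these 3 were chosen after their values were seen. Other slow and cardiac genes did not follow. Against control at 1 h, 12 h and 72 h in C3H/HeMs skin, Myl4 changed by 0.58, 0.37 and 0.71. Myl2 changed by -0.27, -0.16 and -0.02. The smooth muscle gene Acta2 was at 0.73, 0.44, 0.03 and -0.72 in the C3H/HeMs pools at control, 1 h, 12 h and 72 h. In A/J it was at -0.79, -0.66, -1.22 and -1.09.

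Medians of other cell type lists on the same skin arrays are given beside these values. The 40 other skeletal muscle genes had their highest median in the C3H/HeMs control pool (-0.31) and their lowest in the C3H/HeMs 72 h pool (-1.27). In the C3H/HeMs pools at control, 1 h, 12 h and 72 h, the median of 7 epidermal genes was 5.06, 5.15, 5.41 and 6.25, that of 8 adipocyte genes 1.72, 0.96, 0.87 and 1.44, and that of 10 fibroblast and matrix genes 1.86, 2.10, 0.67 and 1.94. In the A/J pools the epidermal medians were 5.76, 6.24, 5.47 and 6.27. Over all 12 skin arrays the adipocyte median ran from 0.87 to 2.97 and was highest in the C57BL/6J pool at 12 h, where the fast skeletal median was 0.50. The part of tissue composition in the muscle gene values was not tested.

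Over the 12 skin arrays, 13 of the other 32 genes had a Pearson correlation with Tnni2 above 0.8, compared with 1.42% of all features, and 10 had a Spearman correlation above 0.8, compared with 1.10%. The closest were Tnnt3 (r = 0.98), Ldb3 (0.96), Mylpf (0.96) and Tpm2 (0.94), while Actn3 (-0.34), Myl4 (-0.33) and Tpm3 (-0.33) lay at the other end. Without the C3H/HeMs control and 1 h arrays, the 2 farthest from the median of Tnni2, 6 of the 13 genes, and 0 others of the 32, were above 0.8, compared with 0.88% of features. These are descriptions of 12 arrays, which share strains and times, and 0.8 was chosen after seeing the values. Outside the 33, the named genes most like Tnni2 were Eno3 (0.96), Nrap (0.95) and Smyd1 (0.94), also named after their values were seen. Nrap is an anchoring protein and Smyd1 a methyltransferase, both of striated muscle.

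**Figure D4:**
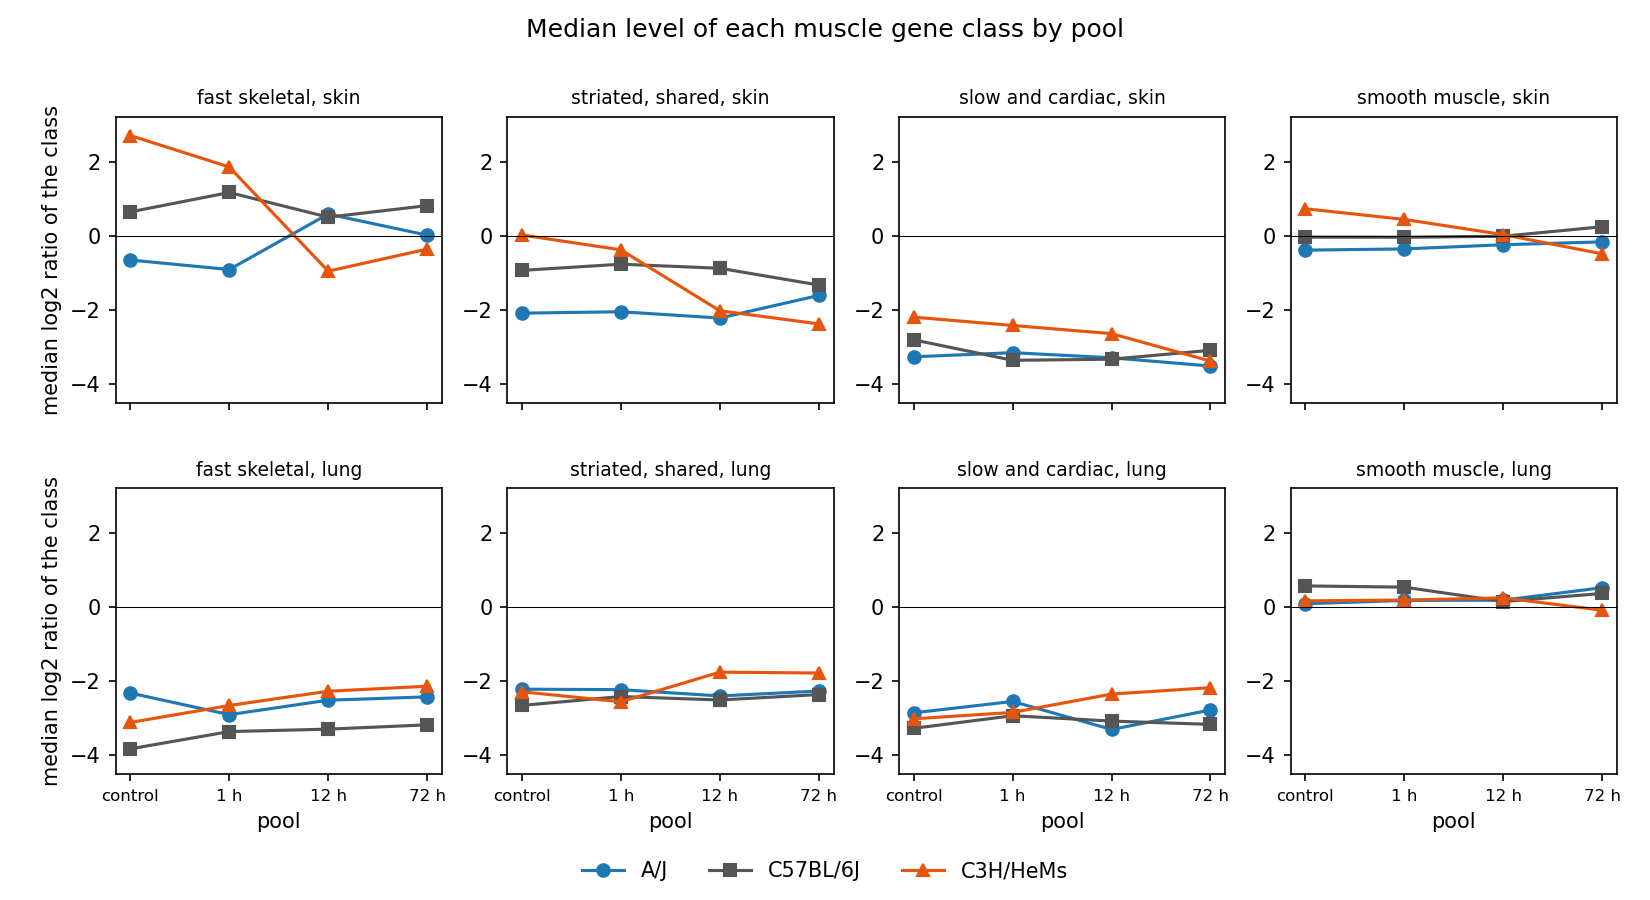
Median log2 ratio of the genes of each class (columns: 9 fast skeletal, 6 shared striated, 12 slow and cardiac, 3 smooth muscle) in skin (upper row) and lung (lower row), by strain and group, 1 array per point, with lines joining pools of different mice. In skin the fast skeletal median of C3H/HeMs was 2.70 in the control pool and -0.96 at 12 h, and in lung no class moved as far.

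No muscle gene passed in skin at any time when all strains were fitted together. By limma, 0 of the 33 genes passed at 1 h, 12 h and 72 h against control, as did 0% of all features, with 1, 3 and 4 genes at an unadjusted p under 0.05 and smallest adjusted p of 1.00, 0.696 and 0.664. The median change was -0.16, -0.48 and -0.60, against -0.05, -0.03 and -0.01 over all features. At 1 h the smallest p belonged to Tnnt2 (-0.67 ± 0.26 SE), and at 12 h to Myl6 (-0.48 ± 0.19) and Mb (-1.41 ± 0.57). At 72 h it belonged to Actc1 (-0.89 ± 0.32) and Myh6, the alpha-cardiac myosin heavy chain (-1.14 ± 0.42). Tnnt2 in the C57BL/6J pool at 1 h (-6.52) and Mb in the C3H/HeMs pool at 12 h (-6.47) lay at the limit of the deposited ratios, so the changes of these pools are bounds and the averages may be understated. With C3H/HeMs left out the count stayed at 0 at each time.

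Strain differences in skin gave the same picture by the F test over 4 arrays per strain. None of the 33 genes passed by limma, against 0.377% of all features, although 11 (33.3%) had an unadjusted p under 0.05, against 19.1% of all features. The smallest adjusted p were those of Actc1 (0.0914), Acta1 (0.113) and Acta2 (0.123), whose strain means were lowest in A/J. Actc1 ran from -4.01 to -2.86 over the 4 A/J pools, from -2.60 to -1.77 over those of C57BL/6J and from -2.45 to -1.07 over those of C3H/HeMs. All 4 A/J pools of Actc1 lay below all pools of the other strains. Of 40 other skeletal muscle genes 0 passed, with Cryab, a small heat shock protein of muscle, nearest (adjusted p = 0.0994).

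Whether irradiation acted differently between strains in skin was tested on the 3 irradiated arrays against the control of each strain. By limma 0 of the 33 genes passed, as did 0% of all features, and 0 genes had an unadjusted p under 0.05. A split of the times chosen after seeing the data, 12 h and 72 h against control and 1 h, gave 2 calls among all 8750 features (0.0229%), and both were muscle genes. They were Tnni2 (limma adjusted p = 0.0196) and Tnnt3 (adjusted p = 0.0398). Tnni2 differed between the late and the early pools by 1.06 for A/J, -0.64 for C57BL/6J and -3.61 for C3H/HeMs. For Tnnt3 the differences were 1.01, -0.31 and -3.28. Each value is the mean of 2 arrays less the mean of 2, and since the split followed the values seen, the p-values are a description.

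In lung no muscle gene passed at any time. By limma 0 of the 33 genes passed at 1 h, 12 h and 72 h, against 0.0114%, 0.114% and 0.114% of all features, with 0, 7 and 7 genes at an unadjusted p under 0.05 (21.2% at 12 h and 72 h, against 12.1% and 12.4% of features). The median change was 0.07, 0.13 and 0.12, against -0.01, 0.07 and 0.05 over all features. The smallest p at 12 h were those of Tnnt3 (1.13 ± 0.33 SE, adjusted p = 0.349), Myom2 (0.70 ± 0.21) and Myh7 (0.82 ± 0.26). At 72 h they were those of Myom2 (0.77 ± 0.21, adjusted p = 0.335), Tnnt3 (1.15 ± 0.33) and Myh7 (0.87 ± 0.26), and at 1 h that of Myh6 (0.38 ± 0.19, adjusted p = 1.00). Of the 4 arrays that stood apart none is of C57BL/6J, where Tnnt3 at control, 1 h, 12 h and 72 h had -3.82, -3.36, -3.63 and -3.17. In A/J it had -3.34, -3.27, -2.09 and -2.22, and in C3H/HeMs -3.82, -3.53, -1.86 and -2.13, so that the 4 arrays that stood apart held its 4 highest values. Their part in these changes was not tested beyond the fits without them, which also called 0 genes.

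Of the 4 myosin heavy chains measured, Myh6, Myh1 and Myh7 passed the strain test in lung, but not without the 4 arrays that stood apart. Myh11, the fourth, did not pass and was highest in C57BL/6J (mean 0.58) and lowest in C3H/HeMs (0.13). Myh6 at control, 1 h, 12 h and 72 h had -3.44, -3.31, -3.37 and -3.37 in A/J pools, -3.92, -3.65, -3.91 and -3.88 in C57BL/6J pools and -3.18, -2.47, -2.41 and -2.21 in C3H/HeMs pools. Myh1 had -3.40, -3.39, -2.51 and -2.42 in A/J pools, -3.88, -3.64, -3.82 and -3.77 in C57BL/6J pools and -3.11, -2.49, -1.53 and -1.49 in C3H/HeMs pools. Myh7 had -2.69, -2.59, -1.70 and -1.79 in A/J pools, -3.33, -3.09, -3.05 and -3.19 in C57BL/6J pools and -2.67, -2.36, -1.49 and -1.09 in C3H/HeMs pools. For these 3 genes C3H/HeMs was at each time the highest strain and C57BL/6J the lowest, and for Myh6 the 3 strains did not overlap at all.

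These 3 were the calls among the 33 genes, against 2.95% of all features by the F test over strains (limma adjusted p = 0.013 for Myh6, 0.0331 for Myh1 and 0.0421 for Myh7, 4 pools per strain). C3H/HeMs exceeded C57BL/6J by 1.27 for Myh6, 1.62 for Myh1 and 1.27 for Myh7. A further 9 genes had an unadjusted p under 0.05, among them Myom2 (adjusted p = 0.0783). Without the 4 arrays that stood apart 0 genes passed. With quantile scaling 1 passed, and without 1 array at a time the count ran from 0 to 3, being 0 without the C57BL/6J or the C3H/HeMs array at 72 h and 1 without the A/J array at control or 72 h or the C57BL/6J or C3H/HeMs array at 12 h.

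Other heart and skeletal muscle genes on these arrays gave the following values. The median of 7 other heart muscle genes ran from -1.01 to -0.30 over the 12 lung arrays and was highest in the C3H/HeMs pool at 12 h. In the control, 1 h, 12 h and 72 h pools it was -0.96, -0.49, -0.30 and -0.67 in C3H/HeMs and -0.77, -0.64, -0.78 and -0.85 in C57BL/6J. None of the 7 passed the strain test, and Nppa had the smallest adjusted p (0.24). Of the 40 other skeletal muscle genes 1 (2.5%, against 2.95% of all features) passed, Ankrd1, a stress-responsive ankyrin repeat protein of the sarcomere (adjusted p = 0.00409). The part of attached heart or chest wall tissue in the lung values was not tested.

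**Figure D5:**
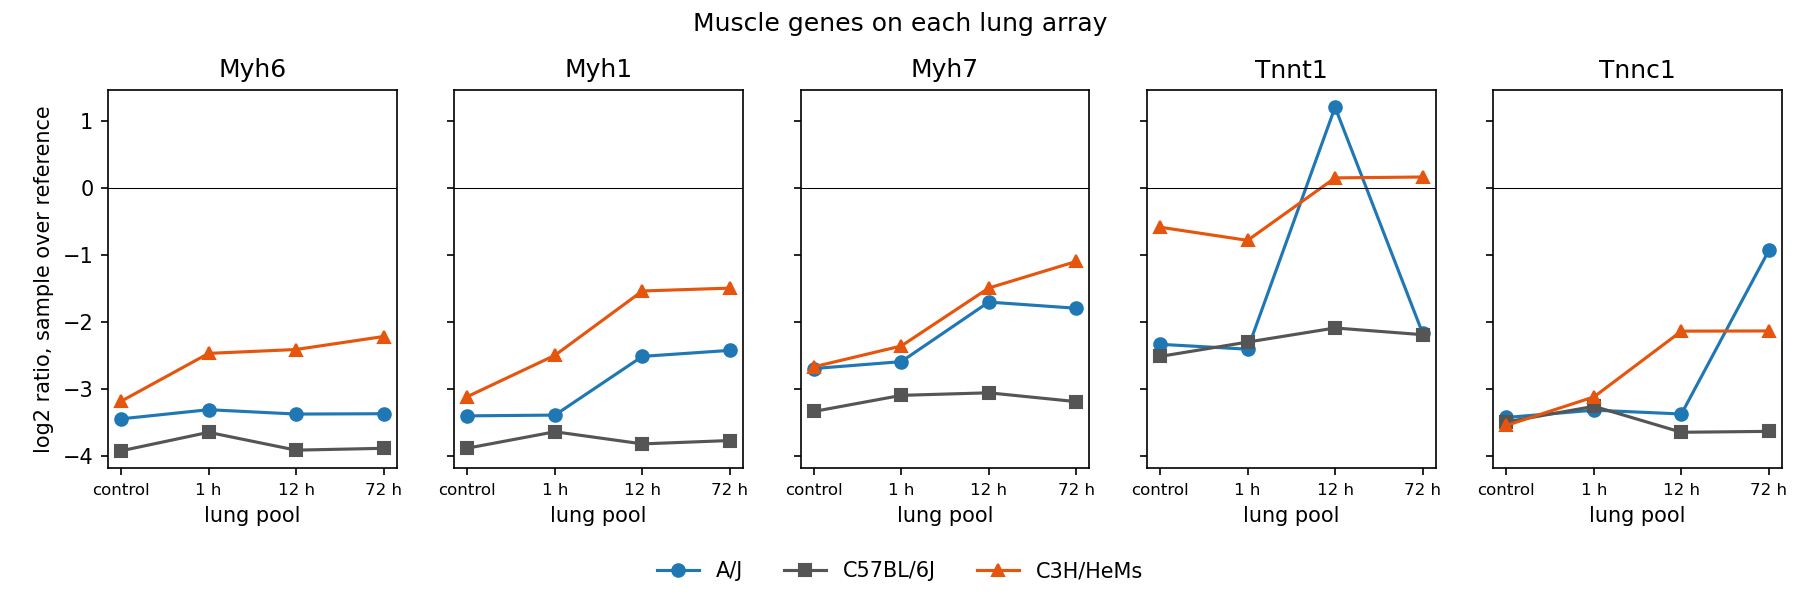
Log2 ratio of sample over reference in the 4 lung pools of each strain for Myh6, Myh1 and Myh7, which passed the strain test, and for Tnnt1 and Tnnc1, which had the widest ranges in lung; each point is 1 array, and lines join pools of different mice. C3H/HeMs was above C57BL/6J for the 3 heavy chains at every time, and single A/J arrays stood out for Tnnt1 at 12 h (1.21) and for Tnnc1 at 72 h (-0.93).

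Slow troponins held the widest ranges in lung. Tnnt1 at control, 1 h, 12 h and 72 h had -2.33, -2.40, 1.21 and -2.16 in A/J pools, -2.51, -2.30, -2.09 and -2.19 in C57BL/6J pools and -0.58, -0.78, 0.16 and 0.17 in C3H/HeMs pools. Tnnc1, slow and cardiac troponin C, had -3.42, -3.31, -3.37 and -0.93 in A/J pools, -3.49, -3.26, -3.64 and -3.63 in C57BL/6J pools and -3.54, -3.12, -2.13 and -2.13 in C3H/HeMs pools. Pvalb had -2.32, -2.90, -3.00 and -3.70 in A/J pools, -3.96, -4.33, -3.29 and -3.56 in C57BL/6J pools and -3.68, -4.78, -2.82 and -3.53 in C3H/HeMs pools. Each high Tnnt1 and Tnnc1 value in A/J was a single array of the 4 that stood apart, and Tnnt1 was also higher in C3H/HeMs than in C57BL/6J at every time.

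In C3H/HeMs lung 5 of the 33 genes lay at least 1 log2 unit above control at 12 h and 7 at 72 h, against 3.05% and 2.99% of all features. In A/J lung 5 and 7 genes lay at least 1 unit below it at 12 h and 72 h, against 9.47% and 9.89%. Directions in A/J lung were mixed, since other genes lay at least 1 unit above control on the same arrays. They were Tnnt1 (3.54) and Tnnt3 (1.25) at 12 h, and Tnnc1 (2.50) and Tnnt3 (1.12) at 72 h. Actc1 in A/J lung was at -2.01, -2.18, -4.01 and -4.02 at control, 1 h, 12 h and 72 h, and Mylpf at -3.30, -3.42, -4.75 and -4.68, so that both lay lower on the late arrays, which are among the 4 that stood apart. In C57BL/6J lung 0 of the 33 genes lay 1 unit above or below control at any time. By limma 0 genes passed the test of strain by irradiation in lung, against 0.0229% of all features, with 1 at an unadjusted p under 0.05. The later split of 12 h and 72 h against control and 1 h called 13 genes, against 11.5% of all features, and in this split the late arrays of A/J and C3H/HeMs are the 4 that stood apart.

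Responses of skin and lung were compared in 1 fit of all 24 arrays. By limma 0 of the 33 genes passed, as did 0% of all features, with 6 genes at an unadjusted p under 0.05 (18.2%, against 5.35% of features). The median of the skin response less the lung response was -0.42, against -0.06 over all features, and 2 of the 33 genes were above 0. The smallest p belonged to Myh7 (-1.17 ± 0.42 SE), Myom2 (-1.25 ± 0.46) and Myh6 (-1.06 ± 0.40), each with an adjusted p of 0.844. In skin, 7, 11 and 7 of the 33 genes were below control in all 3 strains at 1 h, 12 h and 72 h, against 18.2%, 15.7% and 15.4% of all features. In lung, 10, 9 and 9 were above control in all 3 strains, against 14.6%, 16.8% and 18.4%.

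Features of the same gene did not always run together. Myl3, the slow and ventricular essential light chain, was measured by 2 features, whose means over 12 arrays were -5.42 ± 0.63 and 0.21 ± 0.22 (SD) in skin and -4.56 ± 0.62 and 0.33 ± 0.31 in lung. The 2 features of Myh11 were at -0.33 ± 0.39 and 1.23 ± 0.60 in skin and 0.44 ± 0.42 and 0.20 ± 0.17 in lung, and thus differed between tissues in opposite directions. The 2 features of Ldb3 were close, at -0.99 ± 0.76 and -1.07 ± 0.91 in skin and -2.20 ± 0.29 and -2.71 ± 0.30 in lung. Values above for these 3 genes are means of both features.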

How the data were processed

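RNA pools of skin and lung were measured on 24 arrays. The authors deposited log10 ratios of Cy5 over Cy3, limited to ±2 and made with Agilent Feature Extraction per the submitters' processing notes; its version and settings are not given in the sources used here. Per the labels, lung carried Cy3 and skin Cy5, so lung ratios were turned in sign. Ratios were multiplied by 3.32 to give log2 values and centred on each array's median, and probes of a gene were averaged. A single symbol was given for 6433 of 9275 probes by the platform annotation; 2 probes that pair Ryr1 or Ryr3 with another gene were left out, and 0 symbols of members changed in a current table.

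Tests used limma 3.58.1 in R 4.3.3 with strain as a block, Benjamini-Hochberg adjustment over all 8750 features and a threshold of 0.05. A replicate number is a strain, and the deviations of arrays of a strain from their group means correlated with r of -0.05 to 0.71 in lung and -0.05 to 0.68 in skin. Named genes are those that passed, the extremes of each class in each tissue, Acta1, Acta2, Actc1, Mylpf and Des, and the smallest p of each list; Des, Myh7 and Tnnt1 in C3H/HeMs skin, and Actc1 and Mylpf in lung, were chosen after their values were seen. Members, classes and lists were chosen with earlier results of these data known. The fits were run on simulated data with known changes. Its noise was independent between arrays, with the spread of the skin arrays and no structure of strain or pool. It therefore cannot show how the fits hold on the arrays used here. Alternatives changed the scaling, probe averaging, variance model, the block, and the arrays, strains or groups fitted.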

Additional observations from a re-analysis of the deposited data

Results flagged for a closer look

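For 5 genes all 3 strains moved in one direction in skin and in the other in lung, each array set against its own strain's control. At 1 h the skin change less the lung change was -1.12 for Mb, -0.886 for Tnni3 and -0.951 for Tnnt2. At 12 h it was -1.01 for Myh6, -1.73 for Myom2 and -0.761 for Tnni3, and at 72 h it was -1.50 for Myh6. The skin pools were the lower and the lung pools the higher against control, but some of these changes were near 0, as in C57BL/6J lung at 12 h, where Myh6 was at 0.01 and Tnni3 at 9e-05. Tnni3 and Tnnt2 in C57BL/6J skin at 1 h both lay at the limit of the deposited ratios (-6.52), so their differences at 1 h rest on a bound. At 1 h, 12 h and 72 h these were 3, 3 and 1 of the 33 genes, against 2.88%, 2.99% and 5.05% of all features with opposite directions. The differences at single times were not tested, and in the test of the mean response over all times none of the 33 genes passed by limma (6 at an unadjusted p under 0.05).

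Tnni2 and Tnnt3 differed between strains in skin when 12 h and 72 h were set against control and 1 h (limma adjusted p = 0.0196 and 0.0398), a split chosen after the values were seen. The late pools were higher than the early pools in A/J and lower in C57BL/6J and C3H/HeMs. The part of muscle tissue taken with each skin pool was not tested.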

How the results depend on the processing

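Counts of the 33 genes at single times, for the difference of responses and, in the fits that could be made, for strain by irradiation, stayed at 0 under each alternative other than the later split of the times. Without the replicate block (strain) the counts for skin and lung at each time were also 0, and that for non-irradiated skin against lung was 17. The count for non-irradiated skin against lung was 17 and ran from 13 to 24 over 36 alternatives and from 15 to 17 without 1 array. For strain in lung it was 3, and moved to 1 with quantile scaling, 0 without C57BL/6J, 0 without C3H/HeMs, 0 without the 4 lung arrays that stood apart, and between 0 and 3 without 1 array; the cause was not tested, beyond the fewer arrays fitted. For strain in skin it was 0, and 0 to 1 without 1 array. Leaving out 1 array gave 0 in every other comparison that could be fitted; strain by irradiation could not be fitted without a strain's control. The split of 12 h and 72 h against control and 1 h, added after seeing the data, gave 13 in lung and 2 in skin. Single called genes kept their call in 626 repeats, lost it in 48 and turned direction in 0. In the strain test in lung Myh7 lost its call in 16 of 21 repeats, Myh1 in 13 and Myh6 in 5. Between tissues Myl2 lost it in 7, Myom2 in 3 and Actn2 and Ldb3 in 2 each. Signal over background was not used here, so dim spots could not be told from measured ones.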
